A study of Mus musculus with 2 samples.

Results

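The genes described here are Sall4, Utf1, Tcl1, Mybl2, L1td1, Gdf3 and Tdgf1, regulators associated with stem cells and primordial germ cells (PGCs) that lie outside the core pluripotency factors. They were chosen by symbol, and all 7 were found among the 18877 genes of the table. The table holds RNA-seq of E9.5 PGCs, the founder cells of the germ line, in 2 biological replicates that form 1 group. The cells were isolated by their SSEA1 surface antigen from C57BL6 embryos at embryonic day 9.5, without treatment, and the methods describe the embryos as female. For the sorting, the methods give either flow cytometry with antibodies to CD61 and SSEA1 or magnetic beads with the SSEA1 antibody. Which route gave these libraries is not stated there. No control group or other stage was analysed here, so each level stands beside the levels of other genes in the same libraries. A level in such a sorted population cannot tell fewer cells that express a gene from less RNA per cell.

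Several of these genes belong to the circuitry that early germ cells share with pluripotent cells. Sall4 encodes a zinc finger transcription factor that works with the NuRD deacetylase complex, Utf1 a chromatin-associated protein whose gene is a classical target of Oct4 and Sox2, and Mybl2 the factor B-MYB, which joins the MuvB complex to activate genes of the G2 and M phases. Tcl1 encodes a small protein that binds AKT kinases and raises their activity, and L1td1 an RNA-binding protein that descends from a LINE-1 retrotransposon and associates with LIN28. Gdf3 encodes a secreted ligand of the TGF-β superfamily, and Tdgf1 encodes Cripto, the membrane-anchored coreceptor through which Nodal and related ligands signal. Values are TPM, a level per base of gene length that allows genes to be compared within a library.

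The reads behind the TPM values were recovered with annotated exon lengths, and came to 15912467 in replicate 1 and 5458680 in replicate 2. The label was checked against marker genes: 10 of 11 early PGC markers reached 1 TPM in both replicates, compared with 60.0% of all genes. The exception was Fut4, which encodes a fucosyltransferase, listed at 0 in replicate 1 and at 0.147 TPM in replicate 2. Markers of other cells were present at unequal levels. Erythroid markers, led by the embryonic globins, had a summed level of 4002 and 3780 TPM in replicates 1 and 2, whereas endothelial, macrophage, mesenchymal, neural and gonadal epithelium markers summed to between 2.37 and 19.4 TPM per list and library. Of the gut endoderm list, Epcam was at 160 and 138 TPM, Foxa1 was at 0 in both replicates and Foxa2 was at 0 and 0.505 TPM. Whether RNA from other cells contributed to the values below was not tested.

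All 7 genes were expressed in both replicates, at levels that differed 10.6-fold between the highest and the lowest mean. Each of them reached 5 TPM in both replicates, a threshold passed by 35.5% of all genes, and 5 of 7 reached 10 TPM in both, compared with 25.3% of all genes. On the log2(TPM + 1) scale the members had medians of 5.63 and 5.39 in replicates 1 and 2, averaging 5.51 ± 0.175 (SD, n = 2), whereas the median of all genes was 1.89 and 1.85, and that of the 12679 protein-coding genes 2.29 and 2.21. The lowest member, Mybl2, still lay above 74.2% of all genes in replicate 1 and 70.5% in replicate 2.

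**Figure D1:**
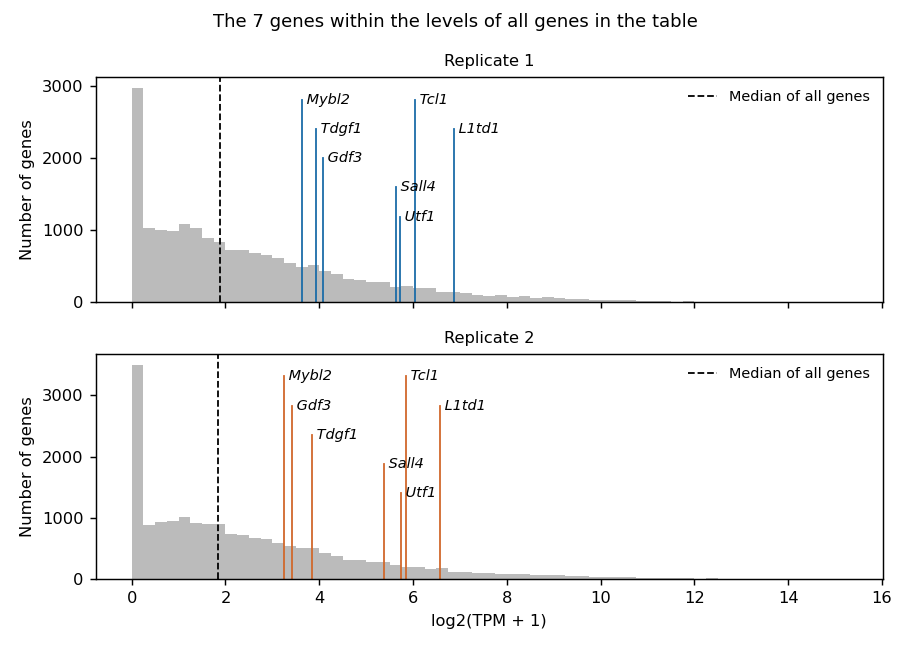
Histograms of log2(TPM + 1) over all 18877 genes, with the number of genes on the vertical axis, in replicate 1 (top) and replicate 2 (bottom); the dashed line marks the median of all genes and the coloured lines mark the 7 genes. All 7 lines lie to the right of the dashed line in both replicates, from Mybl2 at 3.63 and 3.24 to L1td1 at 6.88 and 6.58.

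Sall4 (ENSMUSG00000027547.17) lies on the minus strand of chromosome 2, 168748332 to 168767943 on GRCm38 (mm10), with 5536 exonic bases. It was at 48.7 TPM in replicate 1 (2562 reads, exact Poisson 95% interval 46.8 to 50.6 TPM) and 40.8 TPM in replicate 2 (756 reads, 38.0 to 43.9 TPM), a mean of 44.8 ± 5.54 TPM (SD, n = 2). The intervals did not overlap, with replicate 1 higher. The methods name no molecular identifiers, so amplified copies may count as separate reads, and the intervals cover counting error alone. The noncoding gene Gm14261 overlaps Sall4 on the opposite strand and holds 7.64% of the 50-base windows of its transcripts. Since the strand handling of the counting is not stated, reads from that stretch cannot be assigned with certainty.

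Sall4 was the dominant member of its family. Its paralog Sall1 was at 9.11 TPM in replicate 1 and 4.49 TPM in replicate 2, which placed Sall4 5.34-fold and 9.10-fold higher. Sall2 was at 0.503 and 0.330 TPM, from 26 and 6 reads. Sall3 was at 0.0458 TPM in replicate 1, where it had 3 reads, and 0.608 TPM in replicate 2, where it had 15. Sall4 thus exceeded each paralog in both libraries. Sall1, Sall2 and Sall3 share no 50-base window with the transcripts of other genes.

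The 13 subunits of NuRD, the nucleosome remodeling and deacetylase complex that SALL4 recruits, were all at 1 TPM or more in both replicates. Of all genes, 60.0% reached this level. The median of the subunits was 3.45 and 3.86 on the log2(TPM + 1) scale, and that of all genes 1.89 and 1.85. By mean, Rbbp7, a histone-binding subunit, was highest at 133 and 138 TPM, followed by the deacetylase Hdac2 at 134 and 127 TPM and by the methyl-CpG-binding-domain subunit Mbd3 at 29.4 and 22.9 TPM. The lowest were the remodeler Chd3 at 2.33 and 2.09 TPM, Gatad2b at 4.27 and 3.53 TPM and the second deacetylase Hdac1 at 5.71 and 4.51 TPM. Hdac2 was 2.75-fold and 3.11-fold higher than Sall4 in replicates 1 and 2, while Chd3, Gatad2b and Hdac1 were lower than Sall4 in both.

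Utf1 (ENSMUSG00000047751.9) lies on the plus strand of chromosome 7, 139943789 to 139945112, and is the shortest of the 7 with 1227 exonic bases in 2 exons. It was at 51.5 TPM in replicate 1 (601 reads, interval 47.5 to 55.8 TPM) and 52.7 TPM in replicate 2 (216 reads, 45.9 to 60.2 TPM), a mean of 52.1 ± 0.798 TPM (SD, n = 2). The replicates did not differ beyond counting error. Its longest coding transcript has the highest GC content of the 7, at 63.5%, and shares no 50-base window with another gene.

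Of the genes set beside Utf1, Sox2 and Mycn were listed at high values and Pou5f1 at a low one. Pou5f1, which encodes Oct4, was at 1.54 and 1.46 TPM from 33 and 11 reads, so that Utf1 was 33.4-fold and 36.0-fold higher. The noncoding gene Gm19553 overlaps Pou5f1 in sequence, holding 9.54% of its windows, and had 31 and 11 reads. Its part in the value of Pou5f1 was not tested, and how the counting treated reads that fit both genes is not stated. The level of Pou5f1 is therefore less certain than that of Utf1, and so is the ratio between them. Sox2 was at 106 and 146 TPM, 2.05-fold and 2.78-fold higher than Utf1. The MYC family gene Mycn was at 46.7 and 43.8 TPM, near Utf1 in both libraries, whereas Myc was at 0.581 and 0.991 TPM. Atf2, which encodes a transcription factor that UTF1 can bind, was at 7.95 and 4.35 TPM, and the decapping gene Dcp1a at 2.93 and 2.04 TPM. Cdkn2a was not analysed here.

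Among the core pluripotency factors as a list, 9 of 10 were in the table and all 9 reached 1 TPM in both replicates, with a median of 4.30 and 3.71. The median of the 7 genes was higher in each library. Zfp42, which encodes the zinc finger protein Rex1, was highest at 276 and 272 TPM, followed by Sox2 and by Klf2 at 38.4 and 48.3 TPM. Pou5f1, Klf4 (2.10 and 1.18 TPM) and Tfcp2l1 (7.35 and 5.99 TPM) were the lowest, and each of these was below all 7 genes in both libraries. The place of Pou5f1 in this order is uncertain, because its transcripts overlap those of Gm19553 in sequence.

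**Figure D2:**
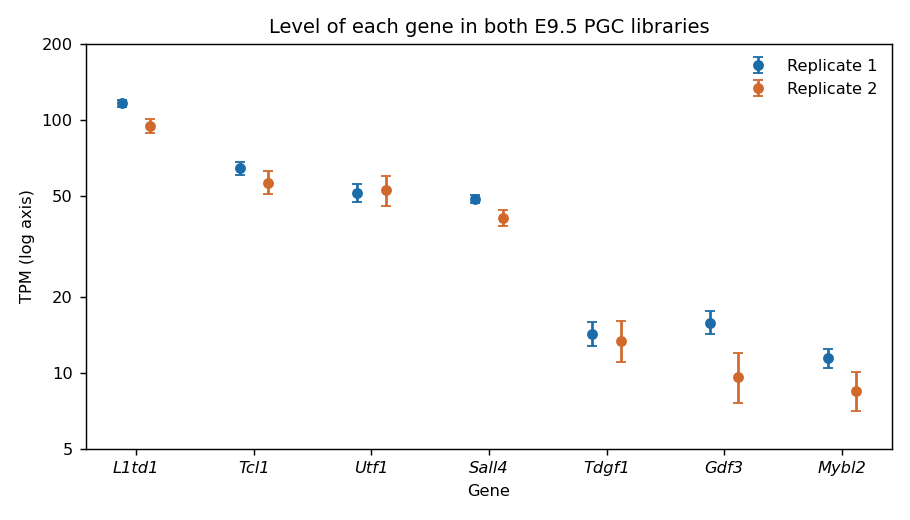
TPM of the 7 genes (logarithmic vertical axis) in replicate 1 (blue) and replicate 2 (orange), ordered by mean; bars are exact Poisson 95% intervals of the recovered reads. L1td1, Tcl1, Utf1 and Sall4 sit between 40.8 and 117 TPM, above Tdgf1, Gdf3 and Mybl2 at 8.46 to 15.8 TPM.

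Mybl2 (ENSMUSG00000017861.11) lies on the plus strand of chromosome 2, 163054687 to 163084688, with 4632 exonic bases in 15 blocks. It was at 11.4 TPM in replicate 1 (502 reads, interval 10.4 to 12.4 TPM) and 8.46 TPM in replicate 2 (131 reads, 7.07 to 10.04 TPM), a mean of 9.93 ± 2.08 TPM (SD, n = 2). The intervals did not overlap, with replicate 1 higher. It was the lowest of the 7 in both libraries. The processed pseudogene Gm3320 holds 18.6% of the 50-base windows of Mybl2 transcripts, the largest share with 1 other gene among the 7. How the counting treated reads that fit both is not stated, so the level of Mybl2 is less certain than that of Tcl1 or Utf1. Within the MYB family, Mybl2 exceeded both paralogs: Myb was at 2.01 and 1.41 TPM and Mybl1 at 4.73 and 4.54 TPM, and Mybl2 was 5.66-fold and 6.02-fold higher than Myb and 2.41-fold and 1.86-fold higher than Mybl1.

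The sequence before the start of Mybl2 is shown with those of Utf1 and Tdgf1, because the 3 genes cover the range of base composition found in the promoters of this set. RefSeq windows on GRCm38.p6, from 250 bases before to 50 bases after the start, were found for 5 of 7 genes and not for Sall4 and Gdf3. The windows of Mybl2, Utf1 and Tdgf1 held 26, 17 and 7 CpG dinucleotides, and the median of 27025 windows was 7. Their GC content was 64.7%, 62.0% and 41.7%, compared with a median of 52.7%. L1td1 held 14 CpG at 58.7% GC and Tcl1 11 CpG at 56.7% GC. The parts that lie before both the RefSeq start and the annotated gene are printed 5′ to 3′ on the strand of the gene, for Mybl2 (chr2:163054385-163054634, plus strand), Utf1 (chr7:139943606-139943788, plus strand) and Tdgf1 (chr9:110946159-110946408, minus strand), with matches to the motifs named in the next paragraph in capitals.
Mybl2: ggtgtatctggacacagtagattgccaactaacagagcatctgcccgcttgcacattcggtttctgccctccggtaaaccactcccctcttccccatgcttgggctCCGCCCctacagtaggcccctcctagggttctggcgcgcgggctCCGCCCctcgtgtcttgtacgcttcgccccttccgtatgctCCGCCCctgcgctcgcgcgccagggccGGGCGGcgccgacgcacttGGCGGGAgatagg
Utf1: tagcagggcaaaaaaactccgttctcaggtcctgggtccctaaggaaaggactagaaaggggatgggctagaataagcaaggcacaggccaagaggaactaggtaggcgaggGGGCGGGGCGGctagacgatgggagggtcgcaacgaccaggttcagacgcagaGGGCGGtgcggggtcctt
Tdgf1: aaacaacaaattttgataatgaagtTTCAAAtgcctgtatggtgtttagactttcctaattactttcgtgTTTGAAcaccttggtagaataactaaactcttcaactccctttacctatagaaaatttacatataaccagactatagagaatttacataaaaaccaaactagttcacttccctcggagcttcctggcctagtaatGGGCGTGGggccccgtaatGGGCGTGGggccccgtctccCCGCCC

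Motifs were searched on both strands of the whole windows. Mybl2 held 1 match to GGCGGGA, the core of an E2F-type site, found in 11.4% of all windows, and 4 matches to GGGCGG, the GC box, found in 35.9%. Utf1 also held 4 matches to GGGCGG, of which a pair overlap each other. Tdgf1 held 2 matches to GGGCGTGG, a KLF-type site present in 5.43% of all windows, in a repeated stretch that the printed sequence shows. L1td1 held 1 match to GGGCGTGG. Tdgf1 further held 2 matches to TTTGAA, the letters of the CHR element through which MuvB binds, present in 18.1% of windows, and Mybl2 held 0. The octamer ATGCAAAT of POU factors had 0 matches in the 5 windows and is present in 1.75% of all. GGGCGG and GGCGGGA can overlap, and a match describes letters, not a bound site.

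The list for MuvB and the related DREAM complex held 12 genes, their subunits and Foxm1, which is not a subunit. All 12 reached 1 TPM in both replicates, compared with 60.0% of all genes, with a median of 2.86 and 2.93. E2f5 was highest at 145 and 137 TPM, then its dimer partner Tfdp1 at 43.5 and 36.8 TPM and the MuvB subunit Lin37 at 26.0 and 27.2 TPM. The lowest were the pocket protein gene Rbl2 at 1.28 and 1.07 TPM, the MuvB subunit Lin9 at 2.90 and 1.36 TPM and Foxm1, which acts after B-MYB on the same genes, at 2.39 and 2.91 TPM. Mybl2 was 4.76-fold and 2.91-fold higher than Foxm1. Their common G2/M genes were far more abundant, with a median of 6.04 and 5.88. In both replicates 16 of 16 reached 1 TPM and 14 reached 10 TPM, compared with 60.0% and 25.3% of all genes. Ccnb2, Ccnb1 and Ccna2, which encode mitotic cyclins, were at 255 and 241, 200 and 147, and 149 and 136 TPM. Plk1 (5.84 and 7.62 TPM), Cenpe (12.96 and 9.06 TPM) and Kif11 (13.01 and 10.4 TPM) were the lowest. Ccnb1, the only gene of this list for which a ratio to Mybl2 was computed, was 17.6-fold and 17.4-fold higher than Mybl2.

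Tcl1 (ENSMUSG00000041359.14) lies on the minus strand of chromosome 12, 105216750 to 105222793, with 1845 exonic bases. It was at 64.5 TPM in replicate 1 (1132 reads, interval 60.8 to 68.4 TPM) and 56.6 TPM in replicate 2 (349 reads, 50.8 to 62.8 TPM), a mean of 60.6 ± 5.63 TPM (SD, n = 2). The intervals overlapped. Tcl1 shares no 50-base window with other genes. Its 5 Tcl1b paralogs, 3 of which are the nearest protein-coding genes downstream of it, were not analysed here.

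The kinase axis on which TCL1 acts was expressed at lower levels than Tcl1 itself. Of 20 genes from Kit to the Foxo factors, 19 were in the table. In both replicates 18 reached 1 TPM, compared with 60.0% of all genes. The median of the 19 was 2.20 and 2.33, close to that of protein-coding genes. All 19 were below Tcl1 in both libraries, the highest single value being 14.3 TPM for Gsk3b in replicate 1. Of all genes in the table, 91.2% and 90.7% were also below Tcl1 in replicates 1 and 2, so the count is not particular to this axis. Gsk3b, a kinase that AKT inhibits, was at 14.3 and 8.002 TPM, and Foxo3, a transcription factor gene of the same axis, at 11.5 and 10.8 TPM. The lowest were the regulatory subunit Pik3r2 at 0.277 and 0.143 TPM, Gsk3a at 1.81 and 1.44 TPM and the KIT ligand gene Kitl at 2.78 and 1.27 TPM. Akt1 and Akt2, which encode AKT kinases and were named for that role after their values were seen, were at 4.03 and 3.58 TPM and at 2.17 and 2.98 TPM. Tcl1 was 16.0-fold and 15.8-fold higher than Akt1.

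L1td1 (ENSMUSG00000087166.9) lies on the plus strand of chromosome 4, 98726734 to 98738480, with 3174 exonic bases. It was the highest of the 7, at 117 TPM in replicate 1 (3516 reads, interval 113 to 120 TPM) and 94.8 TPM in replicate 2 (1006 reads, 89.0 to 101 TPM), a mean of 106 ± 15.4 TPM (SD, n = 2). Replicate 1 was higher, beyond the counting intervals. The processed pseudogene Gm48515 holds 1.44% of its windows. L1td1 was above 94.1% and 93.5% of all genes in the table.

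The RNA-binding genes associated with L1TD1 were each lower than L1td1. Lin28a was at 2.32 and 2.84 TPM and Lin28b at 2.48 and 2.41 TPM, so that L1td1 was 50.3-fold and 33.3-fold higher than Lin28a. The mRNA-binding proteins of the IGF2BP family were at 3.46 and 4.48 TPM (Igf2bp1), 3.29 and 4.15 TPM (Igf2bp2) and 11.2 and 15.9 TPM (Igf2bp3). The list had a median of 2.10 and 2.37, and 5 of 5 genes reached 1 TPM in both replicates, compared with 60.0% of all genes. L1td1 was lower in replicate 2 while 4 of these 5 genes were higher there, compared with 7715 of all 18877 genes. For Lin28a, Igf2bp1 and Igf2bp2 the counting intervals of the replicates overlapped, and only for Igf2bp3 were they apart.

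Gdf3 (ENSMUSG00000030117.5) lies on the minus strand of chromosome 6, 122605403 to 122610087, with 2423 exonic bases. It was at 15.8 TPM in replicate 1 (364 reads, interval 14.2 to 17.5 TPM) and 9.63 TPM in replicate 2 (78 reads, 7.61 to 12.02 TPM), a mean of 12.7 ± 4.37 TPM (SD, n = 2). Relative to its mean it had the widest spread of the 7, with a coefficient of variation of 34.3%, and the intervals did not overlap. Other genes hold 1.77% of its windows.

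Related ligands and their inhibitors were less uniform. Nodal, the principal ligand, was at 0.502 and 0.714 TPM from 10 and 5 reads, which placed Gdf3 31.5-fold and 13.5-fold higher. Gdf1 was at 1.79 and 3.33 TPM, but all its windows lie within Cers1 transcripts, so its reads cannot be told from those of Cers1. The secreted inhibitors Lefty2 and Lefty1 were at 14.7 and 22.0 TPM and at 5.33 and 10.4 TPM. Lefty2 was thus at 0.928 times Gdf3 in replicate 1 and 2.28 times in replicate 2, and the order of both genes differed between the libraries. Fst was at 2.77 and 1.33 TPM and Inhbb at 0.198 and 0 TPM, and Cer1 and Inhba were not analysed here.

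Tdgf1 (ENSMUSG00000032494.12) lies on the minus strand of chromosome 9, 110939603 to 110946158, with 2622 exonic bases. It was at 14.2 TPM in replicate 1 (355 reads, interval 12.8 to 15.8 TPM) and 13.3 TPM in replicate 2 (117 reads, 11.0 to 16.0 TPM), a mean of 13.8 ± 0.633 TPM (SD, n = 2). The replicates did not differ beyond counting error. The processed pseudogene Tdgf1-ps1 holds 8.86% of its windows and was at 2.46 and 0.583 TPM, from 12 reads and 1 read. Its closest relative Cfc1, the other coreceptor of the EGF-CFC family, was at 7.69 TPM from 76 reads in replicate 1 and at 2.30 TPM from 8 reads in replicate 2. The gene Prss40 holds 24.3% of the windows of Cfc1 and had 71 and 8 reads, so the value of Cfc1 is uncertain.

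The activin receptors in the table were lower than Tdgf1 in both libraries. Of all genes in the table, 77.3% and 77.2% were also below Tdgf1, so this order is not particular to the receptors. The type II activin receptors were at 9.83 and 11.1 TPM for Acvr2b and 4.87 and 4.998 TPM for Acvr2a, and the type I receptor Acvr1b at 1.60 and 3.93 TPM. Acvr1c was not analysed here. Of the convertases that process the ligands, Furin was at 0.195 and 0.163 TPM and Pcsk6 at 1.74 and 0.634 TPM. Hspa5, which encodes the chaperone GRP78, a binding partner of Cripto, was at 76.1 and 65.3 TPM, 5.34-fold and 4.89-fold above Tdgf1. All 6 transducers reached 1 TPM in both replicates, compared with 60.0% of all genes. Smad2 was at 14.97 and 13.4 TPM, Smad4 at 17.9 and 15.1 TPM and Smad3 at 1.58 and 2.81 TPM. Smad7 was at 3.33 and 3.44 TPM and Foxh1 at 7.94 and 11.8 TPM. Skil, which encodes the SMAD corepressor SnoN, was the highest of the 6 at 239 TPM in replicate 1 and 140 TPM in replicate 2.

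**Figure D3:**
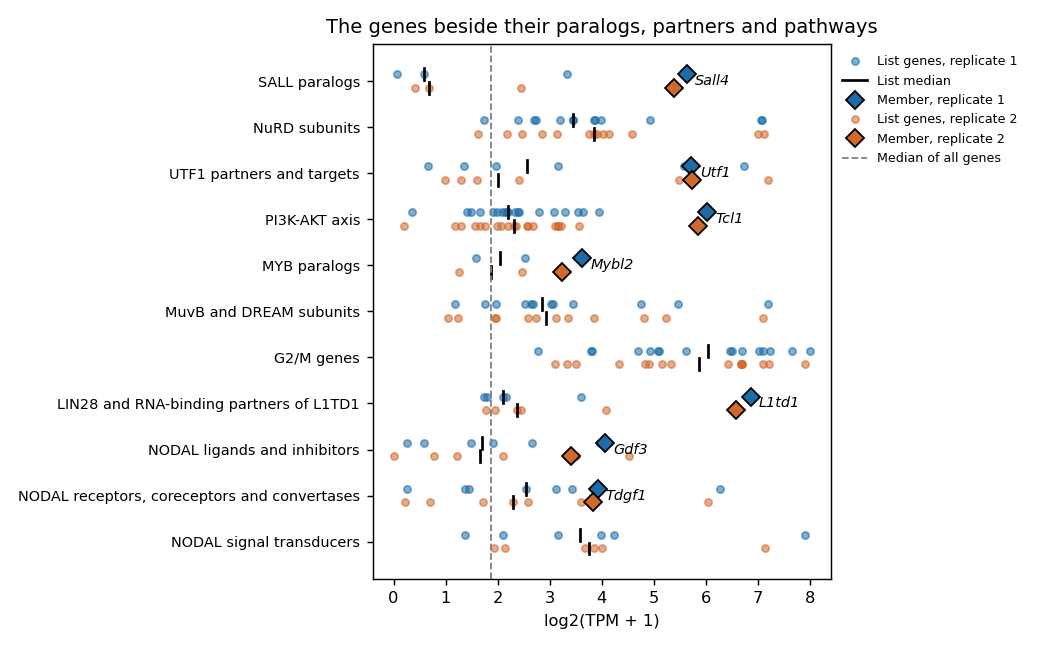
log2(TPM + 1) of the genes of 11 lists (circles) and of the gene each list was set beside (diamonds, drawn once per gene) in replicate 1 (blue) and replicate 2 (orange); black ticks are list medians and the dashed line the median of all genes. In the 7 rows with a diamond it lies to the right of the list median in both replicates; the G2/M genes, which have no diamond, have the highest list median, at 6.04 and 5.88.

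The order of the 7 genes was tied in places. By mean TPM it ran L1td1, Tcl1, Utf1, Sall4, Tdgf1, Gdf3 and Mybl2. L1td1 was 1.81-fold and 1.68-fold above Tcl1, with intervals that did not overlap in either library. Tcl1 and Utf1 were separated in replicate 1 but their intervals overlapped in replicate 2, and Utf1 and Sall4 were separated in replicate 2 but overlapped in replicate 1. The widest gap lay between Sall4 and Tdgf1, at 3.42-fold and 3.06-fold, and was clear of the intervals in both libraries. Below it, Gdf3 was higher than Tdgf1 in replicate 1 and lower in replicate 2, with overlapping intervals in each. Gdf3 and Mybl2 were separated in replicate 1 only.

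The replicates were then compared for each gene. Of the 7 genes, 6 were lower in replicate 2, compared with 56.6% of the 7313 genes at a mean of at least 5 TPM, and 0 differed more than 2-fold on the log2(TPM + 1) scale, compared with 4.42% of those genes. Gdf3 differed most, with a ratio of replicate 2 to replicate 1 of 0.609 (exact binomial 95% interval 0.471 to 0.780). The ratio was 0.742 (0.607 to 0.901) for Mybl2, 0.814 (0.758 to 0.873) for L1td1, 0.839 (0.773 to 0.910) for Sall4 and 0.877 (0.775 to 0.989) for Tcl1. These intervals lay below 1, whereas those of Tdgf1 (0.937, 0.754 to 1.16) and Utf1 (1.02, 0.871 to 1.20) held 1.

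Protein-coding genes with a similar number of reads, within 1.5 times, gave the usual spread between the libraries. On the log2(TPM + 1) scale the difference of Gdf3 was -0.66, and 90.9% of 1993 such genes differed less. The difference of L1td1 was -0.29, a smaller change at greater depth, and 85.8% of 562 genes differed less. For Sall4 (-0.25) the share was 75.1%, for Mybl2 (-0.39) 74.1%, for Tcl1 (-0.19) 51.1%, for Tdgf1 (-0.09) 20.2% and for Utf1 (0.03) 10.1%. A comparison of 1 library with 1 library describes these libraries and has no test. In the marker lists of other cells, genes lower and higher in replicate 2 were counted without regard to counting error. Over all 18877 genes these counts were 9688 and 7715. In the macrophage list, which summed to 19.4 and 9.53 TPM, replicate 2 was lower for 4 genes and higher for 0. These counts were 4 and 1 for endothelial, 5 and 2 for erythroid and 3 and 2 for gonadal epithelium markers. They were 1 and 1 for gut endoderm, 0 and 4 for mesenchymal and 0 and 3 for neural markers. The neural count includes Pax6, at 3.553 and 3.555 TPM. Macrophage reads in replicate 2 were few, at 0 for C1qb, 3 for Tyrobp, 18 for Fcer1g and 39 for Csf1r. The part of other cells in the differences was not tested.

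**Figure D4:**
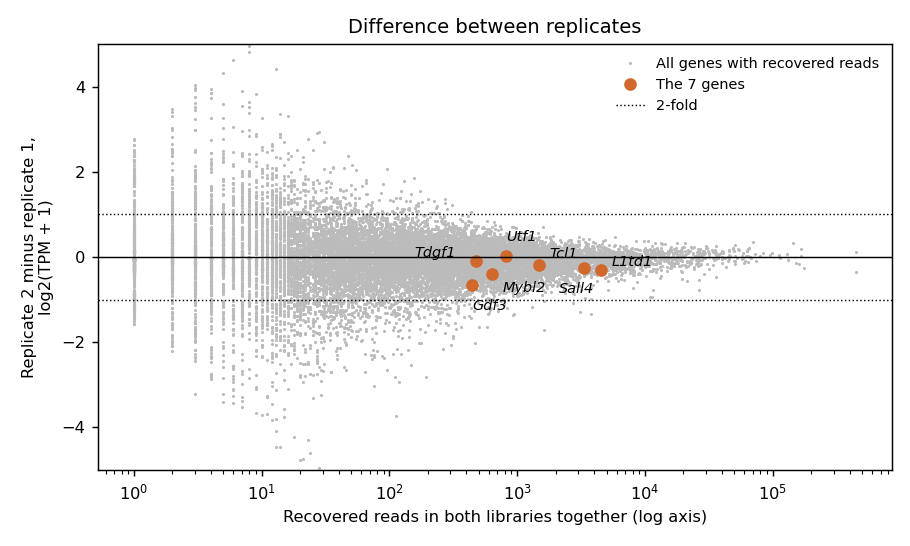
Replicate 2 minus replicate 1 on the log2(TPM + 1) scale against the recovered reads in both libraries together (logarithmic axis), for 17282 genes (grey; 5 lie outside the vertical range) and the 7 genes (orange); dotted lines mark 2-fold. The 7 genes lie between -0.66 and 0.03, inside the dotted lines, with Gdf3 the lowest.

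The genomic neighbors of the 7 genes differed in level. Gdf3 lies in a cluster with germ cell and pluripotency genes: Dppa3, 16322 bases from it and transcribed away from it, was at 5013 and 5075 TPM, 317-fold and 527-fold higher than Gdf3. Apobec1, 2958 bases away on its other side, was at 0.779 and 1.33 TPM. Nanog, the next gene beyond Dppa3 and named after its value was seen, was at 26.4 and 20.9 TPM. Mybl2 ends 2345 bases from Gtsf1l, a gene on the opposite strand that was at 439 and 425 TPM, and begins 8545 bases from Ift52 at 9.84 and 4.91 TPM. L1td1 lies between Patj at 2.63 and 2.54 TPM and Kank4 at 0.0658 and 0.936 TPM, and Sall4 between Zfp64 at 5.28 and 6.12 TPM and Atp9a at 1.99 and 1.21 TPM. Tdgf1 lies between Lrrc2 at 8.18 and 3.34 TPM and Fam240a at 0.211 TPM (1 read) and 6.59 TPM (11 reads). L1td1, Sall4 and Tdgf1 were thus higher than both adjacent genes in both libraries. Of all genes, 94.1% and 93.5% were below L1td1, 89.3% and 88.4% below Sall4 and 77.3% and 77.2% below Tdgf1. The order is therefore not particular to these neighbors. The adjacent protein-coding genes of Utf1 and Tcl1 were not analysed here.

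**Figure D5:**
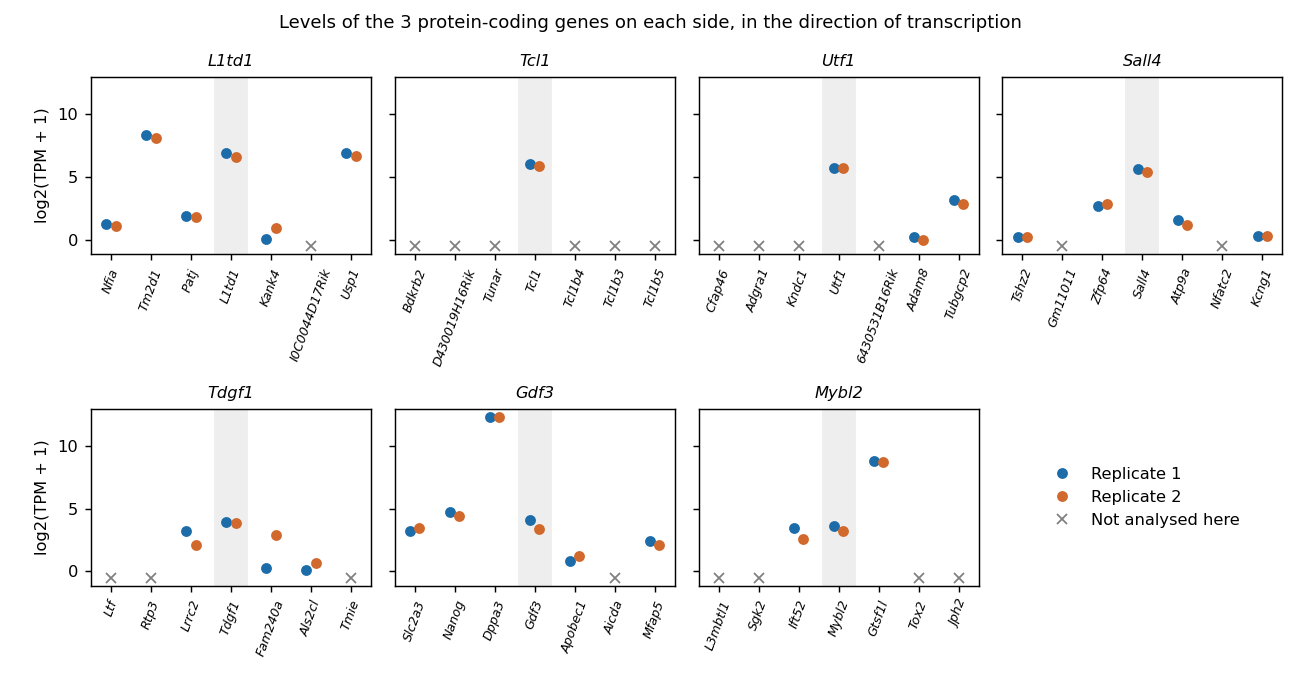
log2(TPM + 1) in replicate 1 (blue) and replicate 2 (orange) of each of the 7 genes (shaded) and the 3 protein-coding genes on each side of it, ordered in the direction of its transcription; grey crosses mark genes not analysed here. Dppa3 beside Gdf3 and Gtsf1l beside Mybl2 stand above the shaded genes, while L1td1, Sall4 and Tdgf1 stand above the genes next to them.

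Genes with the most similar values were found by the distance of log2(TPM + 1) over both libraries, among 12678 protein-coding genes. With 2 libraries of 1 group this measures nearness in level only. The closest to L1td1 were Nop16, Sycp3 and Snx5, of which Sycp3, a component of the synaptonemal complex, was at 118 and 96.5 TPM. Utf1 was nearest to Hells, G3bp1 and 1700007K13Rik. Hells, which encodes a chromatin remodeler, was at 52.2 and 51.8 TPM. The genes near Sall4 included Oxct1 and Thoc7, and Tcl1 was nearest to Fam169a, Sri and Ppib. Tdgf1 was nearest to Ddx41, Arg2 and Vps35, Mybl2 to Lrrc47, Rtn3 and Aida, and Gdf3 to Dhrs4, Yipf4 and Abhd2. The distances ranged from 0.00458 for Ddx41 and Tdgf1 to 0.0657 for Abhd2 and Gdf3.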

How the data were processed

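RNA-seq was analysed for 2 samples of 1 group, E9.5 PGCs, grouped and numbered by their titles. The authors aligned clean reads to mm10 with Hisat2, assigned them to genes with featureCounts and deposited TPM values per gene; the submitters' notes also name Bowtie2, RSEM, DESeq2 and R 3.4.2. The annotation, strand handling and treatment of shared reads are not given in the sources used here. The methods describe Smart-seq2 cDNA, whereas the labels name a different kit.

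Symbols were matched to GENCODE M21 on GRCm38, with 18748 of 18877 matched to 1 gene. TPM multiplied by the summed exon length gave whole multiples of 1 amount per library, taken as 1 read. Among values under 50 reads, 96.7% and 95.8% came within 0.02 of a whole number. This step was also run on counts simulated with the same exon lengths. Such a run cannot test whether these lengths match the authors' annotation. Depth sets the precision through Poisson and binomial intervals at 95%, which cover counting error only. Shared sequence was counted as identical 50-base windows on either strand in GENCODE M21 transcripts.

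With 1 group no test between groups was made. Each level is given per replicate with its mean ± SD, or as log2(TPM + 1), which understates differences between low genes. Named genes were all 7 members, all genes of lists with at most 8, 3 from the top and 3 from the bottom of longer lists by mean TPM, the adjacent protein-coding genes and the 3 genes nearest in level. A few genes that this rule covers are not reported here. Members and lists were chosen with earlier results of these data known, and motifs after the windows had been seen. Alternatives were another pseudocount, other detection thresholds, filters, scalings and leaving out each replicate. Python 3.11.15 was used with numpy 2.4.6, pandas 2.3.3, scipy 1.17.1 and matplotlib 3.10.9.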

Additional observations from a re-analysis of the deposited data

How the results depend on the processing

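Each alternative changed 1 choice. The median level of the 7 genes, 5.51 on the log2(TPM + 1) scale, rose to 6.03 when TPM was rescaled over protein-coding genes, which multiplied every value by 1.43 in replicate 1 and 1.45 in replicate 2, and was 5.48 with a pseudocount of 0.1. Leaving out 1 replicate gave 5.39 to 5.63 for this median, 10.2 to 11.2 for the ratio of the highest to the lowest mean, and 10 for the number of the 12 pathway lists above the median of all genes. That number fell from 10 to 4 when lists and background were both limited to genes at a mean of at least 1 TPM, a filter that removes low genes from the background. The lowest of the 7 genes by percentile lay above 72.3% of all genes, above 59.5% of genes at a mean of at least 1 TPM and above 68.3% of protein-coding genes. The count detected in both replicates was 7 at 0.1, 1 and 5 TPM and 5 at 10 TPM, and 6 genes were lower in replicate 2 with a pseudocount of 0.1, with the median ratio of genes at 10 TPM set to 0, and with recovered reads scaled to the library total. Among values of single genes and lists, 73 moved by less than the SD between replicates and 38 by more. With 2 replicates, leaving 1 out always moves a mean by less than this SD. Those alternatives are among the 73 by construction and say nothing about stability. The median of the SALL paralogs went from 0.64 to -0.61 on the log2 scale with a pseudocount of 0.1, the one value of these to change sign. The depth of replicate 2 limits Gdf3, Tdgf1 and Mybl2 most, with 78, 117 and 131 reads. No paired analysis was possible because both samples belong to 1 group.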
